A study of Mus musculus with 24 samples.

Results

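The Hox genes encode homeodomain transcription factors that lie side by side in 4 chromosomal clusters, A to D, and all 39 genes of these clusters were followed in the dermal papilla (DP) of the mouse hair follicle. They were taken by their names, Hox followed by a cluster letter and a number, from a table of 25755 genes. Cluster A holds 11 genes on chromosome 6 (52155590 to 52260880, minus strand), cluster B 10 genes on chromosome 11 (96194316 to 96368256, plus strand), cluster C 9 genes on chromosome 15 (102921103 to 103036852, plus strand) and cluster D 9 genes on chromosome 2 (74668310 to 74765142, plus strand), in GRCm38. All 39 are annotated as protein coding.

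Within a cluster the order of the genes follows the order in which they are used along the body axis, a property called collinearity. Genes with low paralog numbers, at the 3′ end, mark anterior levels, and genes with high paralog numbers, at the 5′ end, mark the posterior trunk, the distal limb and the tail. Genes with the same number in different clusters are paralogs. Fibroblasts of adult skin keep a Hox pattern that reflects their place in the body, Polycomb complexes keep the unused genes of a cluster silent, and histone deacetylases remove acetyl groups from histones.

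The DP is a cluster of specialised fibroblasts lodged in the follicle bulb, whose signals instruct the overlying epithelial cells that make the hair. Libraries were made from control mice and from mice lacking Hdac1 and Hdac2 in the DP (dM1/2), with 3 mice for each genotype at postnatal days 20, 24, 28 and 60 (P20, P24, P28 and P60). P20 and P60 lie in the resting phase (telogen) of the first and the second hair cycle, P24 in early and P28 in mid growth phase (anagen) of the second cycle. DP cells carrying a YFP reporter were sorted from the back skin of individual mice, so that each library stands for the back of 1 mouse.

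Every mouse carried the Corin-Cre line, in which Cre is active in the DP after birth. The dM1/2 mice were homozygous for the floxed alleles of Hdac1 and of Hdac2. Control mice also had Corin-Cre and were heterozygous for a floxed allele of either gene or both, or lacked both copies of 1 gene in the DP while keeping 1 copy of the other, and the labels do not say which control library has which genotype. Following the methods of the study, P20 mice were females and P24 and P28 mice were males, whereas P60 mice were of both sexes. Depth moved with the stage, from 35469841 to 49331751 reads on genes in anagen libraries and from 8171944 to 13369732 in telogen libraries, so that stage, sex and depth cannot be told apart in any comparison of anagen with telogen. Values are normalized reads, which are read counts divided by a size factor of the library. A single read was worth between 0.34 and 0.64 normalized reads in anagen and between 1.85 and 2.87 in telogen.

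Hdac1, the check of the labels, had 674.7, 668.2 and 668.5 normalized reads in the P24 controls and 209.0, 187.8 and 116.0 in dM1/2 (log2 fold change −2.01, adjusted p = 0.00167, limma). At P28 the controls had 213.6, 529.0 and 104.7 and dM1/2 had 190.2, 148.7 and 125.7, so the library labelled P28 control replicate 3 lay below all dM1/2 libraries, and the P28 results are therefore also given without it. In Corin, a DP marker, that library lay with the controls. The P28 controls had 41112.4, 30326.2 and 75255.4 and dM1/2 had 4580.7, 4008.8 and 5005.4. In telogen, Hdac1 set the genotypes apart at P20, from 375.0 to 511.3 in controls and from 216.0 to 369.6 in dM1/2. At P60 the ranges overlapped (359.9 to 505.9 and 317.7 to 371.1), so this check does not bear out the P60 labels. Hdac2 did not pass the threshold at any age. Its P24 values were higher in dM1/2 (1157.3 to 1281.7) than in controls (924.7 to 1068.6), and the groups overlapped at the other ages. Hdac2 levels are therefore no check of the labels. All 12 DP markers were detected in every group, and their summed level was 294277 to 359656 in the P24 controls and 152071 to 186689 in dM1/2, and 143703 to 414016 in the P28 controls and 121296 to 133966 in dM1/2. Telogen libraries held 15769 to 48095. The sums are carried by a few genes, with Vcan alone at 146157.2 to 208235.7 in the P24 controls. In dM1/2 more of the 12 markers were called lower than higher at P24, and the calls were split evenly at P28. At P24 1 was higher and 6 were lower, beside 26.6% of all genes called (14.8% higher and 11.8% lower). At P28 3 were higher and 3 lower, beside 35.5% (20% higher and 15.6% lower). The median log2 fold change of the markers was −0.60 at P24 and −0.65 at P28. Markers of other fibroblasts summed to 25717, 40456 and 3581 in the P28 controls and 8044 to 12617 in dM1/2. P28 control replicate 2 had the highest of these sums and the lowest DP marker sum among the P28 controls. In telogen controls the markers of other fibroblasts summed to 31050 to 51453 at P20 and 52228 to 67062 at P60. This was above the DP marker sums of the same libraries, 25655 to 27439 and 19897 to 24999. In dM1/2 the markers of other fibroblasts summed to 22464 to 30380 at P20 and 51414 to 128054 at P60. In bulk RNA, fewer cells of a type and less RNA per cell cannot be told apart, and the part of these marker levels in the Hox results below was not tested.

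The DP used the middle of the clusters most, and cluster C above the others. Levels between genes are compared as normalized reads per kb of exon. Over the 12 control libraries Hoxc8 had 309.8 per kb on average (149.4 to 598.1), Hoxd8 225.6 (179.8 to 259.7), Hoxc6 213.1 (113.5 to 300.8), Hoxc4 133.9 (72.6 to 259.5), Hoxc10 129.8 (46.19 to 222.2) and Hoxc9 73.45 (24.52 to 154.9). In this order Hoxc8 exceeded Hoxd8 in 6 of 12 libraries and Hoxd8 exceeded Hoxc6 in 6 of 12, so the order among these 3 genes was not set beyond the spread. Hoxc6 exceeded Hoxc4 in 12 of 12 libraries, Hoxc4 exceeded Hoxc10 in 5 of 12, and Hoxc10 exceeded Hoxc9 in 11 of 12.

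Cluster C supplied 51.0% of the Hox level per kb in the P20 controls, 62.8% at P24, 53.9% at P28 and 52.3% at P60, as means of 3 libraries. Cluster D supplied 26.8% at P20 and 25.1% at P60, but 12.7% at P24 and 14.4% at P28, with Hoxd8 its most abundant gene. Paralogs 4 to 8 made up between 65.5% and 76.0% of the level in the 4 control groups, and paralogs 11 to 13 between 0.261% and 1.27%. Among the genes of paralog 1 to 3, Hoxb2 and Hoxb3 led with 42.22 and 36.98 per kb. The lower end of the order was nearly silent. Hoxd10, Hoxd11, Hoxc13 and Hoxb1 averaged under 1 per kb, and Hoxa13, Hoxb13, Hoxc12, Hoxd12 and Hoxd13 had no read in any control library. Hoxc13, which is known from the keratinocytes of the hair matrix and shaft, had at most 7 reads in a control library.

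**Figure D1:**
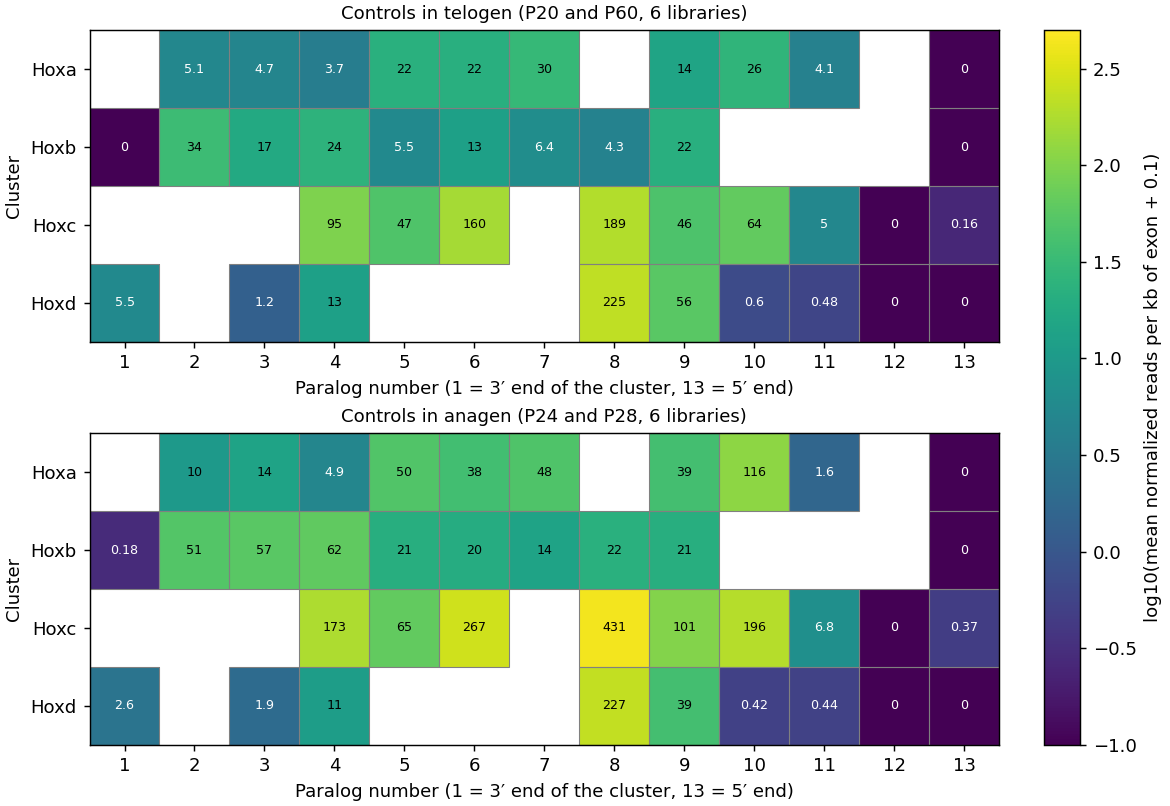
Mean normalized reads per kb of exon of the Hox genes in 6 control telogen libraries (top) and 6 control anagen libraries (bottom), by cluster (rows) and paralog number (columns), with the color on a log10 scale. Hoxc8, Hoxd8 and Hoxc6 have the highest values in both stages, and paralogs 12 and 13 are at or near 0 in all clusters.

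Most Hox genes were higher in the control DP in anagen than in telogen. Of 25 members tested, 16 were higher in the P24 and P28 controls than in the P20 and P60 controls and 1 was lower (adjusted p under 0.05, limma over 12 libraries), which is 68% called, and over all 14066 genes tested 45.6% were called, 23.8% higher and 21.9% lower. The median log2 difference was 1.13 over the members and 0.02 over all genes. The largest differences were those of Hoxb8 (2.27, adjusted p = 0.000239), Hoxa10 (2.04, adjusted p = 3.884e-05), Hoxb5 (1.91, adjusted p = 0.00679), Hoxa3 (1.72, adjusted p = 0.000265), Hoxb3 (1.69, adjusted p = 0.000716) and Hoxc10 (1.66, adjusted p = 2.787e-05). Hoxd9 was the gene that was lower in anagen (−0.50, adjusted p = 0.0253), and 5 of the 12 fits that left out a control library ended this call, with adjusted p from 0.0504 to 0.0622. Hoxd8, the second most abundant member, differed by 0.02 on the log2 scale (adjusted p = 0.9), with 226.6 normalized reads per kb in anagen and 224.6 in telogen. The calls of Hoxb2 (0.54) and Hoxc5 (0.44) were lost in 9 and 8 of 12 such fits, and that of Hoxc5 also with the replicate number as a block (adjusted p = 0.06). In the same contrast 11 of 12 DP markers were higher in anagen and 4 of 4 markers of other fibroblasts were lower, and the part of cell composition was not tested. The control libraries of this contrast are also those of the comparisons with dM1/2.

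Between early and mid anagen the Hox levels of the controls changed little. None of 26 members passed the threshold between P24 and P28 controls with limma, where 1.46% of all genes did (0.723% higher and 0.738% lower), 2 members had an unadjusted p under 0.05, and edgeR and DESeq2 called 0. These 2 were Hoxc8 (log2 difference −0.80, adjusted p = 0.197) and Hoxc5 (0.51, adjusted p = 0.251), and Hoxc8 was called lower at P28 when the spread was taken from a single fit over all 24 libraries (adjusted p = 0.0213).

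In dM1/2 at P24, 10 of 29 Hox genes tested passed the threshold, 3 higher and 7 lower (limma, adjusted p under 0.05). This is 34.5% of the members beside 26.6% of all 14028 genes, which split into 14.8% higher and 11.8% lower. The median log2 fold change was −0.04 over the members and −0.01 over all genes. Genes that fell were Hoxb3, Hoxd9, Hoxc4, Hoxc8, Hoxa7, Hoxc6 and Hoxd8. Genes that rose were Hoxc11, Hoxa9 and Hoxb4. Hoxc11 passed the filter only through its dM1/2 libraries, so its call is no support for a rise. In all 10, the control and dM1/2 libraries did not overlap. Such genes were not counted over the whole table, so this adds no support to the calls. Of all 39 members, 23 were tested at all 4 ages and 10 at none (Hoxa11, Hoxa13, Hoxb1, Hoxb13, Hoxc12, Hoxc13, Hoxd10, Hoxd11, Hoxd12 and Hoxd13), because they averaged under 10 normalized reads. An exact permutation test of a single gene with 3 libraries against 3 cannot go below p = 0.1, so the calls rest on the fit across genes.

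At P28, 12 of 25 members tested passed, 1 higher and 11 lower. The share of 48.0% stood beside 35.5% of all 14126 genes, and the share of lower members, 44.0%, beside 15.6% of all genes, while 20% of all genes were higher. The median log2 fold change was −0.68 over the members and 0.004 over all genes. With no filter on low values the split was less uneven, with 15 of 37 members called, 5 higher and 10 lower, a share of lower members of 27.0% beside 10.3% of all genes, and a median of −0.17. The higher calls gained there were Hoxa13, Hoxb1, Hoxb13 and Hoxd13, whose reads lay almost only in anagen dM1/2 libraries. The 8 members called at both ages moved the same way at both, with Hoxa7, Hoxb3, Hoxc4, Hoxc6, Hoxc8, Hoxd8 and Hoxd9 lower and Hoxc11 higher. For Hoxc11 the P24 call adds no support, since it was tested at P24 only through its dM1/2 libraries. Without P28 control replicate 3, 12 members were called, 2 higher and 10 lower (48.0%, beside 40.9% of all genes). Hoxc8 dropped out and Hoxa9 was added, which rose by 0.55 on the log2 scale (adjusted p = 0.0442, limma). Without P28 control replicates 2 and 3 together, a choice made after seeing the data, 9 of 26 were called (34.6%, beside 31.9% of all genes), and Hoxb5, Hoxd9 and Hoxa3 lost the threshold (adjusted p = 0.0674, 0.0891 and 0.0603). This fit left 1 control, which was assumed to vary like the dM1/2 libraries.

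**Figure D2:**
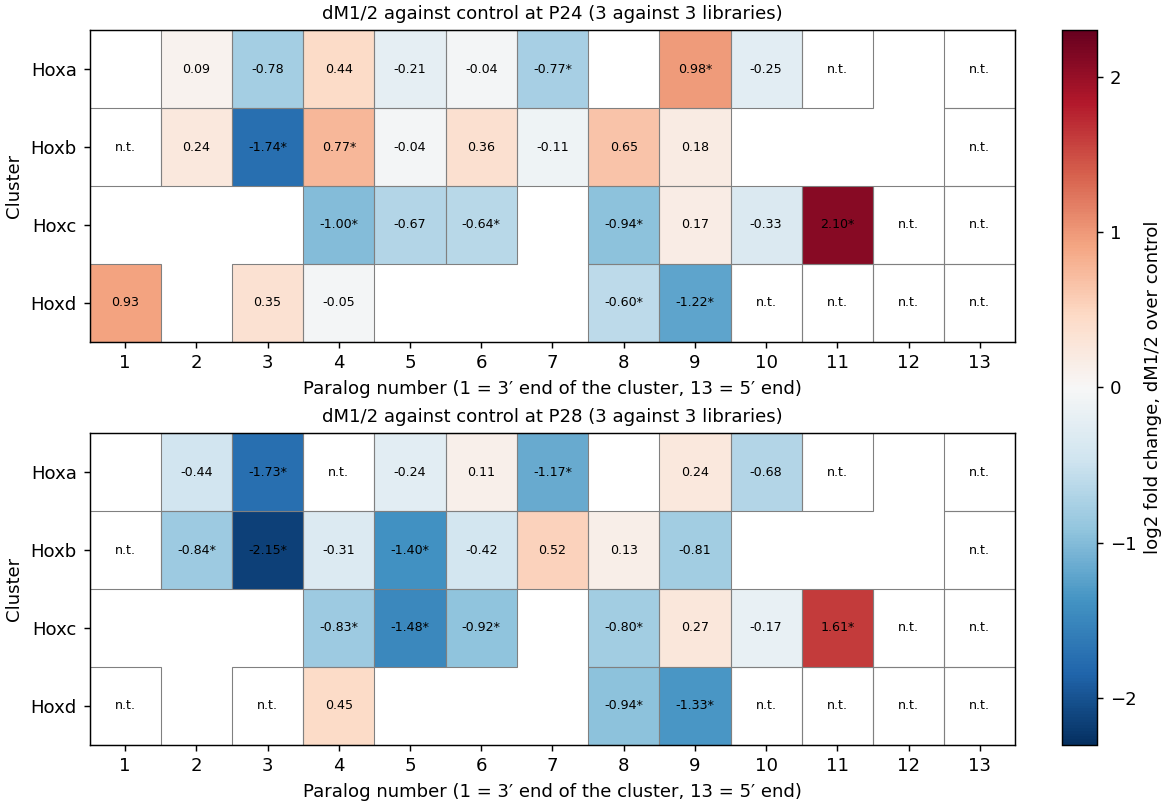
Log2 fold change of dM1/2 over control at P24 (top) and P28 (bottom) for the Hox genes by cluster (rows) and paralog number (columns), from 3 against 3 libraries. An asterisk marks an adjusted p under 0.05 (limma) and n.t. a gene under the mean of 10 normalized reads, which was not tested. Blue cells fill paralogs 4 to 8 of cluster C at both ages, and Hoxc11 is the darkest red cell at both.

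Cluster C showed falls and a rise next to each other. Hoxc4, Hoxc6 and Hoxc8 were lower at both ages and Hoxc5 at P28, Hoxc9 and Hoxc10 did not pass at either age, Hoxc11 was higher at both, and Hoxc12 and Hoxc13 were not tested. Hoxc8, a trunk-level gene and the most abundant member, had 1599.8, 1291.3 and 1693.8 normalized reads in the P24 controls and 794.2, 786.8 and 795.1 in dM1/2 (log2 fold change −0.94, standard error 0.13, adjusted p = 0.00307). Every dM1/2 library lay below every control. At P28 it had 1025.2, 569.4 and 1136.6 in the controls and 498.9, 473.1 and 529.1 in dM1/2 (−0.80, adjusted p = 0.04996). The P28 call was lost in 5 of 6 fits that left out a library, with adjusted p from 0.0751 to 0.156, and with limma on log2-CPM (adjusted p = 0.0582).

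Hoxc4 had 412.4, 481.5 and 666.5 normalized reads in the P24 controls and 268.2, 248.7 and 245.2 in dM1/2 (−1.003, standard error 0.19, adjusted p = 0.00855). Its P28 values were 383.6, 324.7 and 399.3 in the controls and 225.2, 191.1 and 205.5 in dM1/2 (−0.83, adjusted p = 0.0062). The groups were apart at both ages, and the dM1/2 values of both ages lay in the range of the telogen libraries, between 186.4 and 329.4. Hoxc6 had 657.7, 698.9 and 643.5 normalized reads in the P24 controls and 423.4, 482.5 and 378.8 in dM1/2 (−0.64, adjusted p = 0.0112), and 621.6, 505.3 and 724.3 in the P28 controls against 366.7, 302.5 and 302.3 in dM1/2 (−0.92, adjusted p = 0.00726). It lost the threshold at P24 without control replicate 2 (adjusted p = 0.0519).

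Hoxc5 had 154.0, 165.7 and 173.1 normalized reads in the P24 controls and 118.9, 137.9 and 65.6 in dM1/2, which did not pass (−0.67, adjusted p = 0.118), although the groups did not overlap. The P28 libraries held 202.3, 206.9 and 305.7 in the controls and 87.8, 86.6 and 76.3 in dM1/2 (−1.48, standard error 0.21, adjusted p = 0.00274), and the call held in all 6 fits that left out a library. The dM1/2 values at P28 lay below every telogen library (between 107.3 and 176.5).

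Hoxc9 and Hoxc10 stand between the genes that fell and the gene that rose. Hoxc9 had 376.5, 228.9 and 216.3 normalized reads in the P24 controls and 304.2, 282.2 and 307.7 in dM1/2 (0.17, adjusted p = 0.624), and 218.8, 188.3 and 249.5 against 278.9, 279.8 and 231.2 at P28 (0.27, adjusted p = 0.259). Hoxc10, a posterior gene of the lumbar level and hindlimb, had 385.7, 424.2 and 351.3 normalized reads in the P24 controls and 284.6, 304.7 and 332.4 in dM1/2 (−0.33, adjusted p = 0.113), and 340.1, 359.3 and 382.3 against 295.1, 347.5 and 321.6 at P28 (−0.17, adjusted p = 0.366). The groups of Hoxc10 were apart at P24 and overlapped at P28, and those of Hoxc9 overlapped at both ages.

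Hoxc11, a posterior gene that was low in the controls, was the largest rise among the members called at P24 and the member called higher at P28 among those that passed the filter, with all 6 libraries in the fit. It had 2.3, 9.5 and 14.7 normalized reads in the P24 controls and 29.1, 31.6 and 42.9 in dM1/2 (2.10, standard error 0.60, adjusted p = 0.0382). The P24 control mean of 8.849 was under the filter of 10, so Hoxc11 was tested at P24 only through its dM1/2 libraries (mean 34.55). The P24 call is therefore no support for a rise at that age. At P28 it had 15.7, 19.2 and 21.6 in the controls and 39.2, 81.8 and 63.4 in dM1/2 (1.61, standard error 0.35, adjusted p = 0.0126). Every dM1/2 library exceeded every control at both ages. At P60 the controls had 2.1, 2.4 and 9.2 and dM1/2 25.2, 17.6 and 4.7, which overlapped and did not pass. The P24 call was lost in 4 of 6 fits that left out a library, with adjusted p from 0.0764 to 0.12, and with edgeR (adjusted p = 0.0546), and the P28 call in 2 of 6.

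Cluster B held the largest fall. Hoxb3, an anterior gene of the hindbrain and neck level, had 172.2, 305.8 and 176.3 normalized reads in the P24 controls and 82.5, 57.5 and 51.1 in dM1/2 (−1.74, standard error 0.29, adjusted p = 0.0057), 3.33-fold lower. Its P28 values were 318.8, 140.9 and 328.4 in the controls and 57.6, 54.0 and 51.8 in dM1/2 (−2.15, standard error 0.34, adjusted p = 0.00393), 4.45-fold lower. All 6 anagen dM1/2 libraries lay below all 6 anagen controls, and the call held at both ages in every fit that left out a library. Of its exon bases 52.9% overlap Hoxb3os on the opposite strand, and since the strand setting of the counting is not given in the sources used here, reads of the 2 genes cannot be told apart.

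Hoxb5 had 16.6, 79.3 and 55.2 normalized reads in the P24 controls and 62.5, 23.2 and 46.7 in dM1/2, which overlapped (−0.04, adjusted p = 0.971). The P28 libraries held 54.4, 47.4 and 94.4 in the controls and 23.9, 21.9 and 23.7 in dM1/2 (−1.40, adjusted p = 0.0162). The call was lost without dM1/2 replicate 2 or 3 (adjusted p = 0.0616 and 0.0519). Hoxb2 was lower at P28 (−0.84, adjusted p = 0.0115), with 229.7, 174.8 and 212.7 in the controls and 102.8, 117.0 and 122.4 in dM1/2, which did not overlap, and the call was lost without control replicate 1 (adjusted p = 0.0549). Of the exon bases of Hoxb2 27.3% overlap Hoxb3os on the opposite strand.

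Hoxb4, which is known to promote self-renewal of blood stem cells, had 116.8, 199.3 and 149.3 normalized reads in the P24 controls and 272.6, 221.3 and 286.8 in dM1/2 (0.77, standard error 0.22, adjusted p = 0.0398). At P28 it had 148.3, 158.8 and 183.9 in the controls and 133.0, 133.7 and 127.7 in dM1/2, apart in the opposite direction without passing (−0.31, adjusted p = 0.186). The rise at P24 was lost in 5 of 6 fits that left out a library, with adjusted p from 0.0586 to 0.12. Hoxb6, Hoxb7, Hoxb8 and Hoxb9 did not pass at either age, with log2 fold changes from −0.81 to 0.65.

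In cluster A, Hoxa7 and Hoxa3 fell and Hoxa9 rose. Hoxa7 had 147.0, 124.0 and 107.2 normalized reads in the P24 controls and 82.9, 63.2 and 74.1 in dM1/2 (−0.77, adjusted p = 0.0313). Its P28 values were 180.1, 101.2 and 177.5 in the controls and 66.9, 56.6 and 73.5 in dM1/2 (−1.17, adjusted p = 0.0174). The groups did not overlap, but 5 of 6 fits that left out a library at P24 ended the call (adjusted p from 0.0568 to 0.0974), and 3 of 6 at P28 (0.0508 to 0.0704). Of the exon bases of Hoxa7 20.4% overlap Hoxaas3 on the opposite strand.

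Hoxa3, an anterior gene needed for the thymus and other pharyngeal organs, had 86.3, 102.4 and 99.6 normalized reads in the P24 controls and 67.6, 64.0 and 38.9 in dM1/2 (−0.78, adjusted p = 0.0631), apart but not past the threshold. The P28 libraries held 74.8, 58.9 and 81.5 in the controls and 39.7, 15.4 and 14.5 in dM1/2 (−1.73, standard error 0.43, adjusted p = 0.0198). The call was lost without control replicate 1, dM1/2 replicate 2 or dM1/2 replicate 3 (adjusted p from 0.0681 to 0.0765). Of its exon bases 25.4% overlap genes on the opposite strand.

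Hoxa9, known for its part in blood progenitors and leukaemia, had 168.7, 183.8 and 169.5 normalized reads in the P24 controls and 321.7, 341.6 and 372.0 in dM1/2 (0.98, standard error 0.13, adjusted p = 0.00301), which is 1.98-fold. The groups did not overlap, and the call held in all 6 fits that left out a library. At P28 the controls had 211.4, 193.4 and 390.6 and dM1/2 345.0, 260.5 and 292.3, and the groups overlapped (0.24, adjusted p = 0.56). The highest value among the P28 controls was that of replicate 3. Hoxa10, the most abundant gene of cluster A, did not pass at either age (−0.25 and −0.68), and P28 control replicate 3 was its highest P28 library too, with 724.7. Hoxa2, Hoxa4, Hoxa5 and Hoxa6 did not pass at either age where tested, with log2 fold changes from −0.44 to 0.44.

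In cluster D, Hoxd8 and Hoxd9 fell at both ages. Hoxd8, a trunk-level gene, had 650.8, 647.7 and 542.3 normalized reads in the P24 controls and 410.3, 380.1 and 415.6 in dM1/2 (−0.60, standard error 0.13, adjusted p = 0.0127). At P28 it had 625.5, 682.7 and 582.1 in the controls and 280.2, 342.0 and 363.3 in dM1/2 (−0.94, standard error 0.15, adjusted p = 0.00357). Telogen libraries of both genotypes held between 493.4 and 734.3, so the 6 anagen dM1/2 libraries were the lowest of the 24. At P20 the controls (610.7 to 662.8) lay above dM1/2 (520.1 to 577.0) without passing (−0.20, adjusted p = 0.368), and at P60 the groups overlapped. The call at P24 was lost without control replicate 2 (adjusted p = 0.0588).

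Hoxd9, which with its paralogs patterns the limb and the lumbar level, had 107.9, 83.8 and 62.3 normalized reads in the P24 controls and 48.0, 25.1 and 35.5 in dM1/2 (−1.22, standard error 0.32, adjusted p = 0.0298). Its P28 values were 73.1, 99.9 and 78.5 in the controls and 27.3, 26.6 and 46.6 in dM1/2 (−1.33, standard error 0.30, adjusted p = 0.0146). All 6 dM1/2 libraries lay below every telogen library (between 70.7 and 155.9) and below every anagen control. The P24 call was lost in 4 of 6 fits that left out a library (adjusted p from 0.0782 to 0.0923), and the P28 call without dM1/2 replicate 2 (0.0598). Hoxd4 did not pass (−0.05 and 0.45), nor did Hoxd1 and Hoxd3 at P24 (0.93 and 0.35), where they were tested. Hoxd3 and Hoxd4 share 62.3% and 52.3% of their exon bases with other genes on the same strand, chiefly each other, and their counts are uncertain.

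**Figure D3:**
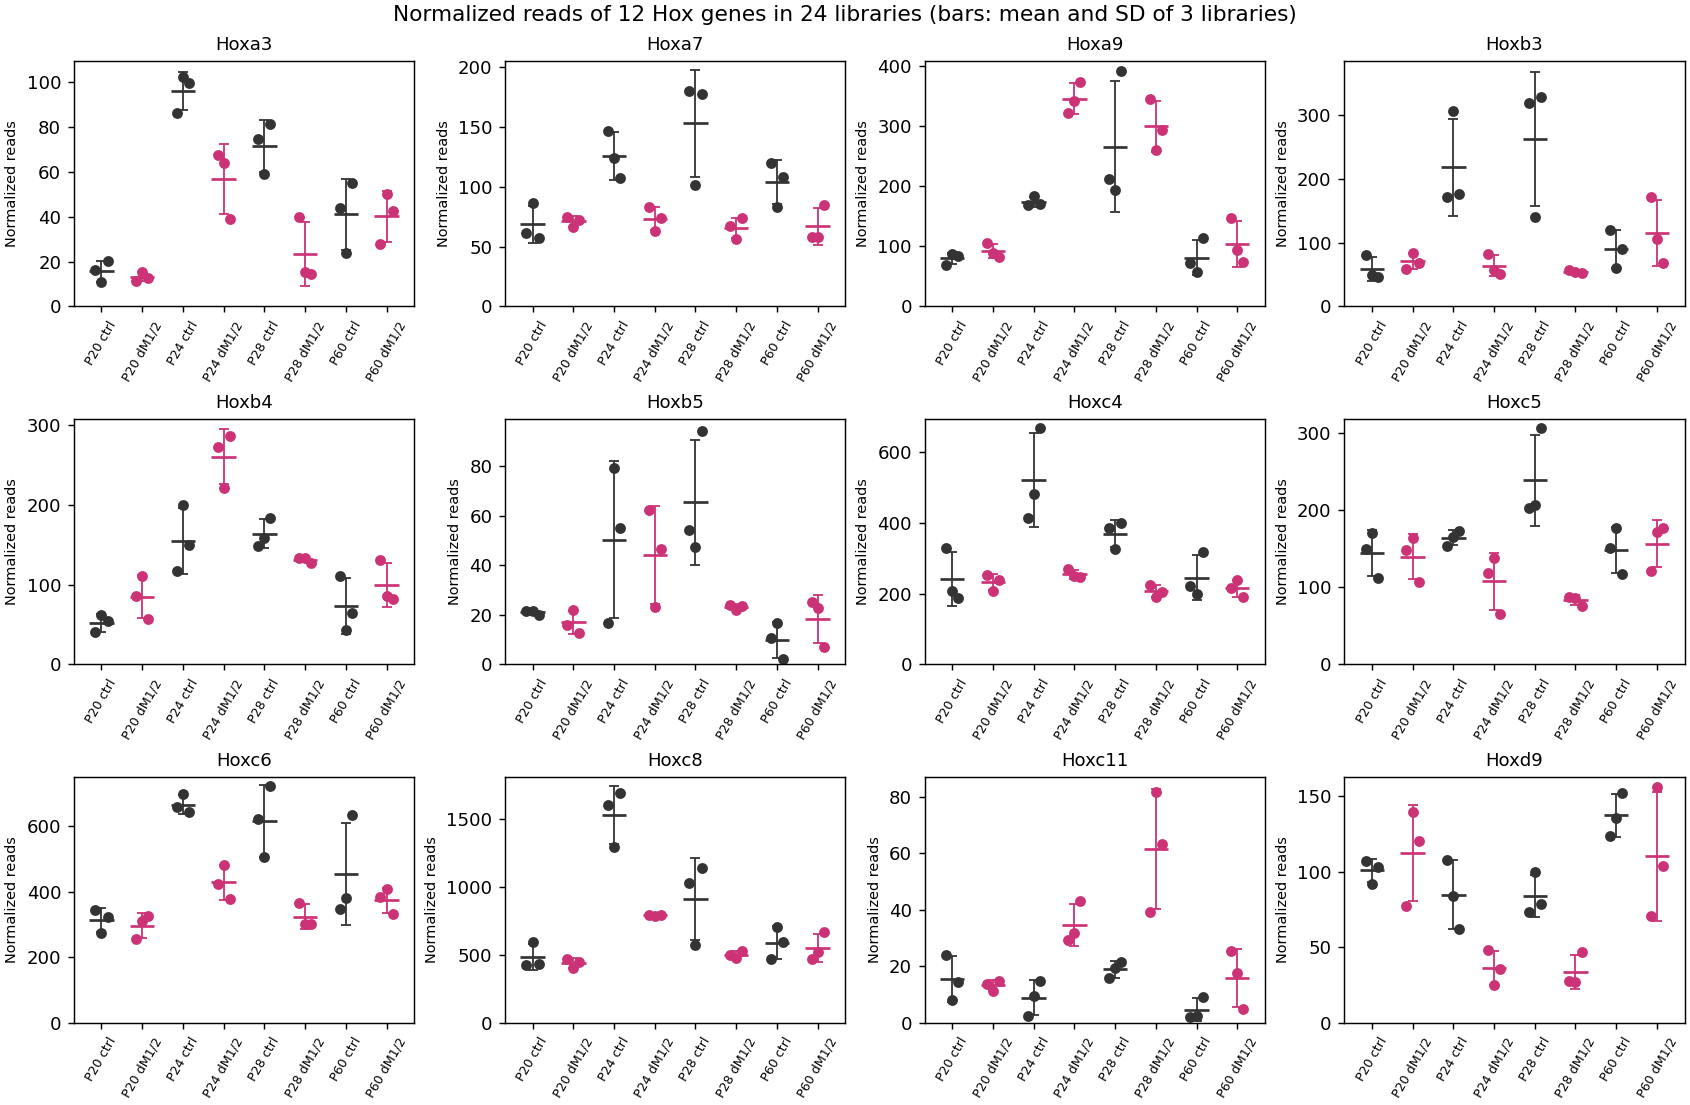
Normalized reads (vertical axes, linear, from 0) of 12 Hox genes in each of the 24 libraries, by age and genotype, with the mean and SD of 3 libraries as bars and each library as a point. The genes are those with values in the text that rose or fell at P24 or P28, without Hoxb2 and Hoxd8, and in the telogen groups the points of controls and dM1/2 share a range.

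In telogen no Hox gene was called. At P20 none of 24 members tested passed the threshold, beside 0.433% of all genes (0.354% higher and 0.0795% lower), and at P60 none of 26, beside 0% of all genes. At both ages 0 members had an unadjusted p under 0.05, and edgeR and DESeq2 called 0. The median log2 fold change of the members was −0.07 at P20 and 0.32 at P60, and over all genes −0.006 and 0.02. For Hoxb3 the log2 fold change was 0.30 at P20 and 0.31 at P60, and for Hoxc4 −0.01 and −0.16.

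The difference between the anagen and the telogen effect was tested directly in a fit of all 24 libraries. For 9 of 26 members tested the effect in anagen was below that in telogen, and for none above it (34.6%, beside 30.2% of all 14243 genes, 16.1% higher and 14.1% lower). With no filter on low values, 12 of 38 members were called, 4 higher and 8 lower, beside 20.3% of all genes. The 4 with the higher effect in anagen were Hoxb13 (2.83), Hoxd13 (1.29), Hoxb1 (2.09) and Hoxa13 (1.77). These 4 genes had 0 reads in telogen and entered the fit almost only through their anagen dM1/2 reads. Their calls are therefore no support for a difference between the stages. Among the members called with the filter, the largest difference was that of Hoxb3 (−2.25, adjusted p = 0.000184). It was followed by Hoxa3 (−1.16, adjusted p = 0.0258), Hoxd9 (−1.14, adjusted p = 0.00899) and Hoxc5 (−1.09, adjusted p = 0.00366). Hoxc4, Hoxc8, Hoxd8, Hoxa7 and Hoxc6 followed with −0.83 to −0.62. Hoxc11 did not pass (1.12, adjusted p = 0.178), and it passed on log2(normalized reads + 10) (0.94, adjusted p = 0.0366). The depth of telogen libraries limits this comparison, since 3 reads correspond to between 5.5 and 8.6 normalized reads there.

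**Figure D4:**
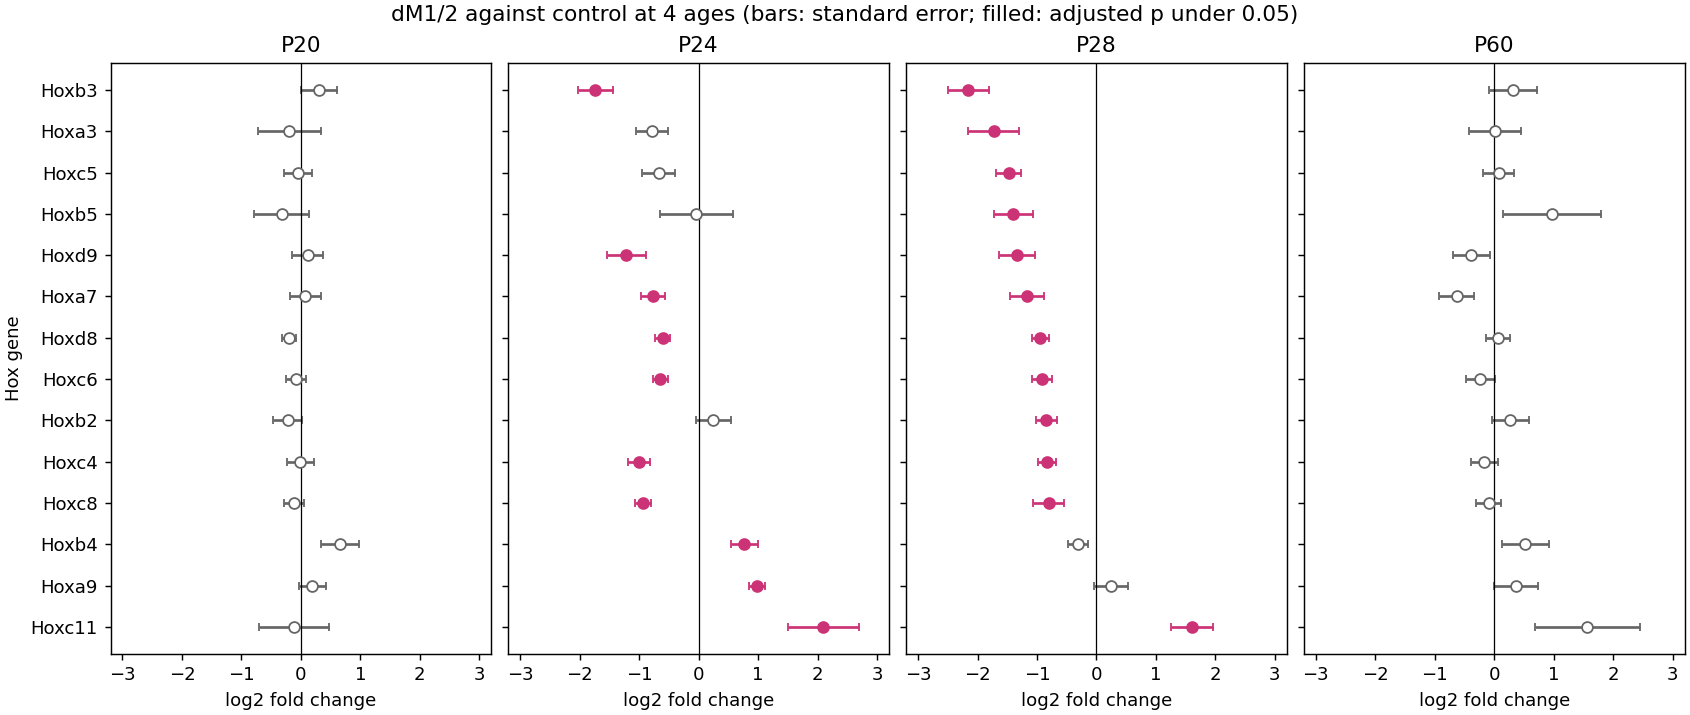
Log2 fold change of dM1/2 over control (horizontal axes) with its standard error (bars) for the 14 Hox genes called at P24 or P28, at the 4 ages, with filled points for an adjusted p under 0.05. All points are open at P20 and P60, and the 11 genes that were lower at P28 stand at or left of 0.24 at P24.

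Summed levels by paralog number are given as a description, with no test. The share of paralogs 11 to 13 in the Hox level per kb was 0.261% in the P24 controls (0.119% to 0.403%) and 1.48% in dM1/2 (1.11% to 2.03%), and 0.63% in the P28 controls (0.503% to 0.7%) and 3.17% in dM1/2 (2.22% to 4.09%). The share of paralogs 4 to 8 was 71.5% and 64.3% at P24 and 65.5% and 58.6% at P28, in controls and dM1/2. The dM1/2 libraries lay above the controls for the first share at both ages and below them for the second. The summed level per kb of paralogs 4 to 8 was 1586 ± 73.7 in the controls and 1065 ± 47.5 in dM1/2 at P24, and 1320 ± 221.8 and 780.3 ± 35.6 at P28 (mean ± SD, n = 3), and that of paralogs 9 and 10 was 491.2 ± 66.6 and 455.5 ± 40.4 at P24 and 534.7 ± 96.5 and 443.1 ± 15.5 at P28. Paralogs 1 to 3 did not follow 1 direction, with a share of 6.05% in the controls and 6.63% in dM1/2 at P24, and 7.24% and 5.02% at P28. Hoxc11 was the most abundant gene of paralogs 11 to 13 in these 4 groups.

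Several Hox genes without reads in the controls had reads in anagen dM1/2 libraries. They lie under the filter on low values, outside the rule for named genes, and were chosen after their values were seen. Their reads are given as recovered counts. Hoxa13, the last gene of cluster A, which acts in the digits and the urogenital tract, had 0 reads in all 12 control and all 12 telogen libraries. In dM1/2 it had 2, 4 and 16 reads at P24 and 9, 13 and 2 at P28, at least 1.99-fold and 2.34-fold higher than the limit of 3 reads per library that a count of 0 allows. Hoxb13, known from the prostate and the tail, had 0 reads in the same libraries, 13, 9 and 35 reads at P24 and 26, 18 and 7 at P28, at least 5.18-fold and 4.95-fold higher. Hoxd13, the digit gene of cluster D, had 4, 1 and 2 reads in dM1/2 at P24 and 6, 6 and 5 at P28, at least 1.64-fold higher at P28, and 0 elsewhere. Without P24 dM1/2 replicate 3, a check added after seeing the data, the P24 mean of Hoxa13 was 0.875 times the limit, so that no bound above it remained, and the bound of Hoxb13 was 3.17-fold. All 3 genes had reads in 6 of 6 anagen dM1/2 libraries and in none of the other 18.

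Hoxb1, at the opposite end of cluster B and known from a single segment of the hindbrain, had 1, 2 and 2 reads in the P24 controls and 26, 17 and 47 in dM1/2, a ratio per normalized depth of 15.3 (95% exact interval 6.33 to 48.3). The P28 libraries held 0, 0 and 1 reads in the controls and 10, 4 and 3 in dM1/2, a ratio of 15.4 (2.41 to 644). These intervals and limits cover counting error only. When no filter was applied, limma called Hoxb1 and Hoxb13 higher at P24, and Hoxb13, Hoxd13, Hoxa13 and Hoxb1 higher at P28. The genes entered these fits almost only through their dM1/2 reads and were picked after their values were seen. These calls therefore add no support to the read counts. In telogen libraries 3 reads correspond to 5.5 to 8.6 normalized reads. The anagen dM1/2 means of Hoxa13 (2.55 and 3.40 at P24 and P28) and Hoxd13 (2.38 at P28) lay under this range. Those of Hoxb13 (6.66 and 7.20) lay within it and that of Hoxb1 at P24 (10.6) above it. All 12 telogen libraries had 0 reads of each of these genes. The limit of 3 reads holds for a single library, and the telogen reads pooled over libraries were not tested against the anagen levels.

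The other silent genes stayed near 0. Hoxc12 had no read in 24 libraries, Hoxd12 had 3 reads in 1 library, and Hoxc13, Hoxd10 and Hoxd11 had at most 9 reads in any library. For Hoxc13 the ratio of dM1/2 to control was 2.34 at P24 (0.694 to 10.1) and 1.91 at P28 (0.825 to 4.8), so that no difference was detectable at this depth.

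**Figure D5:**
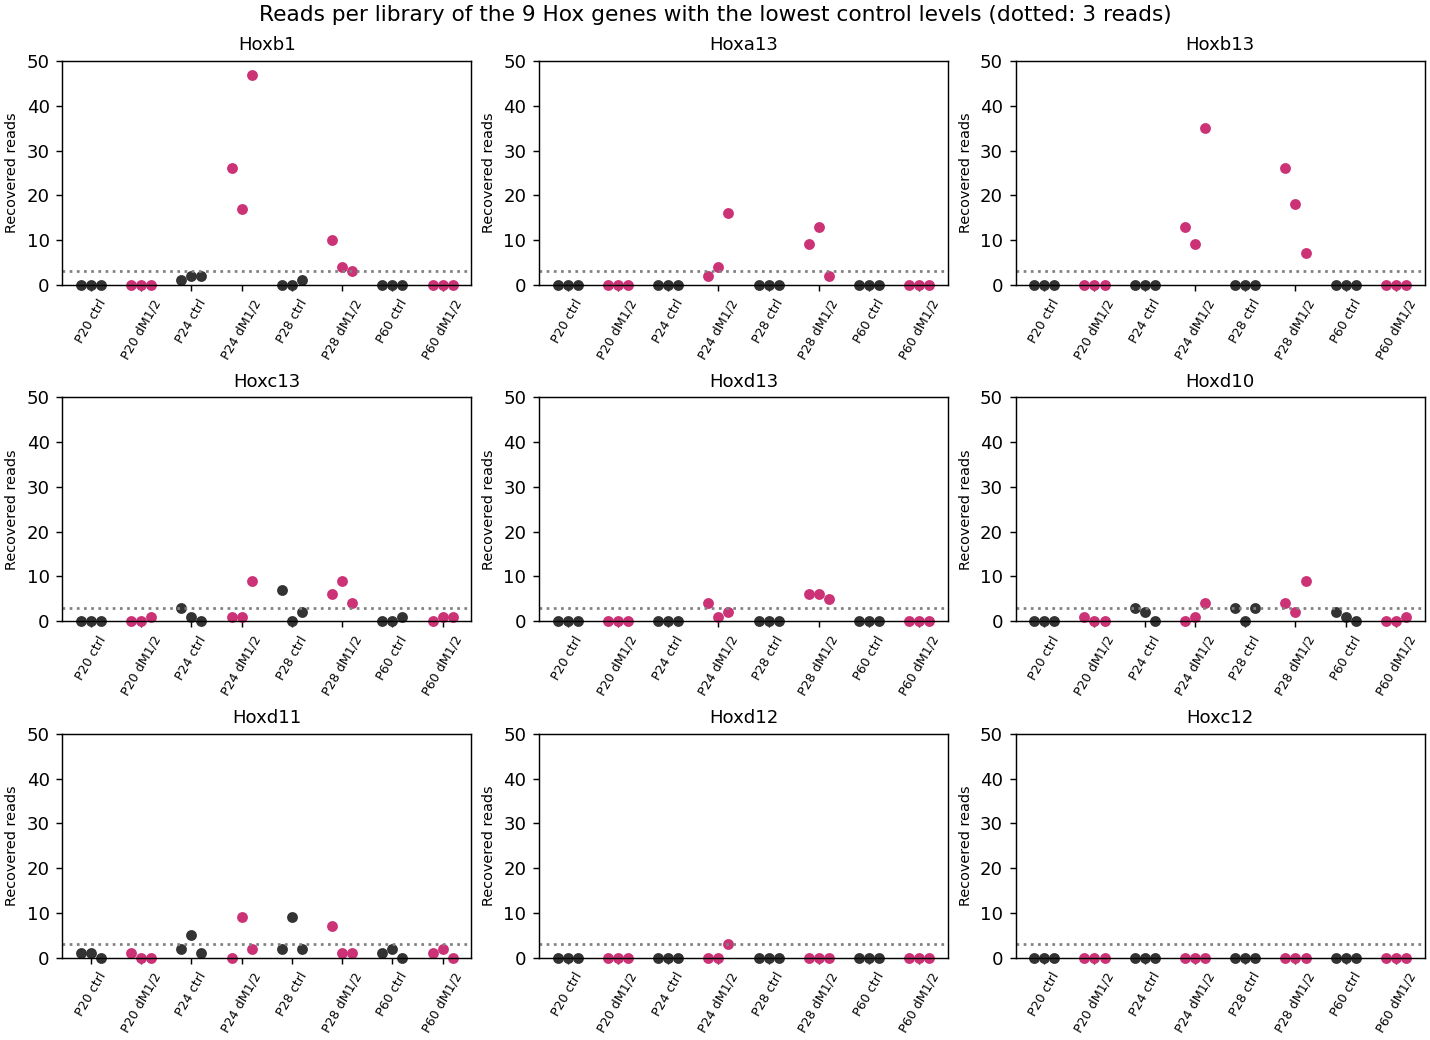
Recovered reads (vertical axes, 0 to 50) of the 9 Hox genes with the lowest control levels in each library, by age and genotype, with a dotted line at 3 reads. For Hoxb1, Hoxa13, Hoxb13 and Hoxd13 all points above the line belong to P24 or P28 dM1/2, and the points of Hoxc12 lie at 0.

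Promoter sequences, 250 bases before and 50 after an annotated start, were taken from RefSeq (GRCm38.p6) and matched 22 of the 39 Hox genes, with 24 promoters. Shown are those of 3 genes that gained reads from near silence (Hoxa13, Hoxd13 and Hoxb1) and of 2 abundant genes that fell (Hoxd8 and Hoxc4), with each CG dinucleotide in capitals, since CG-rich promoters are those on which Polycomb complexes are known to act. They are written 5′ to 3′ on the strand of the gene.
Hoxa13, chr6:52260831-52261130, minus strand: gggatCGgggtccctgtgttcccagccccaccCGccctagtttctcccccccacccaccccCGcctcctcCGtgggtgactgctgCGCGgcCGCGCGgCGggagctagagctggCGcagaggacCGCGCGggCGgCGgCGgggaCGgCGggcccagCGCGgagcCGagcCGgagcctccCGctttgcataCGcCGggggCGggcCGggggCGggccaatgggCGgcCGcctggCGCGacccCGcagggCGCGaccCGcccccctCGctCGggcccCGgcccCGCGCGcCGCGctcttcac
Hoxd13, chr2:74667975-74668274, plus strand: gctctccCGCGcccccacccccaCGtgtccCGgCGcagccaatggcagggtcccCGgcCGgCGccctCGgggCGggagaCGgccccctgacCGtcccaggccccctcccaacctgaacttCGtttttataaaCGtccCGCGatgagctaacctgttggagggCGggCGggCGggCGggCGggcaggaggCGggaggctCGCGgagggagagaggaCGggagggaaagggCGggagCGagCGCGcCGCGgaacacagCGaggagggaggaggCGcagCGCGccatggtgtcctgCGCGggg
Hoxb1, chr11:96365508-96365807, plus strand: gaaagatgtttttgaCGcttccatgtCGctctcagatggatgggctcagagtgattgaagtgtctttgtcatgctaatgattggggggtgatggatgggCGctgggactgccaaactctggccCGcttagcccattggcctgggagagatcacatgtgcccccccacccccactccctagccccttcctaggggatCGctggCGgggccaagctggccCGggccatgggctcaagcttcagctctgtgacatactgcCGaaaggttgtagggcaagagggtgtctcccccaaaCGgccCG
Hoxd8, chr2:74704365-74704664, plus strand: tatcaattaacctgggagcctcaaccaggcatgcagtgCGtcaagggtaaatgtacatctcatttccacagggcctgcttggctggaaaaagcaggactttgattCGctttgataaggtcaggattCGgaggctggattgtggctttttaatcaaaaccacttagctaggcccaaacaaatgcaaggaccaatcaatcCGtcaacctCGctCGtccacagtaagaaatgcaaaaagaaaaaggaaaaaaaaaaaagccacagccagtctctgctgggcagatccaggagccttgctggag
Hoxc4, chr15:103034145-103034444, plus strand: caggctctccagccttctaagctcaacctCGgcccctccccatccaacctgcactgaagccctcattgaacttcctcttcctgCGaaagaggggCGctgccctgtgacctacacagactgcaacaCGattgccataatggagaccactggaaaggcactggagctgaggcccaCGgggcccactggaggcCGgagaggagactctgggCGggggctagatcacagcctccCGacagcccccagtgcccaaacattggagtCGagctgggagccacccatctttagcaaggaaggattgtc

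The promoter of Hoxa13 held 45 CG dinucleotides and that of Hoxd13 37, at the percentiles 98.1 and 94.4 of 32851 promoters, whose median was 7. The promoter of Hoxb1 held 10, that of Hoxc4 9 and that of Hoxd8 6, so that the genes that gained reads differed among themselves. The median over the 24 Hox promoters was 14.5. On both strands, the TATA box motif TATAAA was found in 4 of the 24 and in 13.6% of all promoters, CCAAT in 15 and in 37.4%, TTTAT in 9 and in 40.0%, and GCCATNTT, the core of YY1 sites, in 1 and in 6.1%. TTTAT lies within the reverse complement of TATAAA. Of the 5 promoters shown, each held CCAAT, and that of Hoxd13 also held TATAAA and TTTAT.

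The genes around and above the clusters did not move as a block. Of the TALE cofactors, homeodomain proteins that bind DNA together with Hox proteins, 8 of 9 were tested. At P24 Pbx3 (1.11, adjusted p = 0.00328) and Pknox2 (2.71, adjusted p = 0.0108) were higher and Pknox1 (−0.66, adjusted p = 0.035) was lower. Leaving out 1 library ended the call of Pknox1 in 4 of 6 fits (adjusted p from 0.0703 to 0.108) and that of Pknox2 without dM1/2 replicate 3 (0.0502). None was called at P20 or P60.

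Of 11 genes tested that flank the clusters, 3 were called at P24 (2 higher, 1 lower) and 4 at P28 (2 higher, 2 lower), shares near the 26.6% and 35.5% of all genes. Snx11, next to cluster B, was lower at P28 (−1.35, adjusted p = 0.007), and Hnrnpa1 (1.24, adjusted p = 0.00194) and Smug1 (−1.01, adjusted p = 0.0109), both next to cluster C, moved in opposite directions. Of 5 non-coding genes of the clusters in the table, at most 2 were tested at any age and none was called.

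Of 15 regulators of Hox genes tested (from a list of Polycomb genes, the Trithorax group genes Kmt2a, Kmt2b and Men1, Cdx genes and Gdf11), 6 passed at P24 (4 higher, 2 lower) and 6 at P28 (3 higher, 3 lower), beside 26.6% and 35.5% of all genes. Among the chromobox subunits that place Polycomb repressive complex 1 on chromatin, Cbx2 was higher at P28 (1.56, adjusted p = 0.000836), with 139.6, 123.0 and 108.8 normalized reads in the controls and 390.6, 372.8 and 334.4 in dM1/2, and Cbx8 too (0.82, adjusted p = 0.0183). Cbx7 was lower (−1.36, adjusted p = 0.00393), with 167.9, 199.2 and 147.1 in the controls and 77.2, 66.8 and 55.0 in dM1/2. Gdf11, a secreted signal known to shift the trunk Hox code toward posterior genes in the embryo, was higher at P20 (1.22, adjusted p = 0.0194), P24 (1.08, adjusted p = 0.00303) and P28 (1.06, adjusted p = 0.0335). Leaving out 1 library ended its call in 4 of 6 fits at P20 (adjusted p from 0.0505 to 0.111) and in 4 of 6 at P28 (0.0717 to 0.104), and that of Cbx8 in 2 of 6 (0.0626 and 0.0674). Cdx1, Cdx2 and Cdx4 were not tested, with at most 2.9 normalized reads in any library.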

How the data were processed

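RNA-seq of sorted YFP+ DP cells was measured in 24 libraries, 3 mice for each of 8 groups of age and genotype. After ribosomal depletion and single-end sequencing, the authors used Trimmomatic for trimming, TopHat 2 for alignment to mm10 (GRCm38.p4) and HTSeq for counting, and divided the counts by DESeq2 size factors, so the deposited signal values are size-factor normalized reads per gene. The strand setting of the counting and the DESeq2 version are not given in the sources used here. The deposited fold changes and p-values of the authors' comparisons were not used.

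Whole reads were recovered for 100% of values within 0.01 of a whole number. Genes averaging 10 or more normalized reads in the libraries fitted were tested on log2(normalized reads + 1) with limma 3.58.1 (trend, two-sided, R 4.3.3), with Benjamini-Hochberg adjustment over all genes tested and a threshold of 0.05. Fold changes are on that scale, which understates changes of low genes. Scripts were tested on simulated data. Alternatives were a pseudocount of 10, no filter, at least 10 reads in every library, TMM-scaled log2-CPM in limma with a prior count of 2, edgeR 4.0.16 quasi-likelihood and DESeq2 1.42.0 on recovered reads, a replicate block, 1 fit of all libraries and leaving out each library. Libraries of a group differed beyond sampling noise (chi-square per gene 10.4 to 1485.4).

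Members and companion lists were chosen with earlier results of these data known. Library values are given for members past the threshold at P24 or P28 (up to 6 rises and 6 falls at each age, by log2 fold change) and the 6 most abundant members; the others by range or count. Hoxa10, Hoxb2, Hoxc9 and the silent genes were otherwise singled out after their values were seen. Results of some genes are not reported here.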

Additional observations from a re-analysis of the deposited data

Results flagged for a closer look

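The effect of dM1/2 differed between anagen and telogen for 9 of 26 Hox genes tested, by the interaction in a limma fit of 24 libraries. In each the anagen effect was the lower one. This is 34.6% of the members beside 30.2% of all 14243 genes, which split into 16.1% higher and 14.1% lower. The log2 difference was −2.25 for Hoxb3 (adjusted p = 0.000184), −1.16 for Hoxa3 (adjusted p = 0.0258), −1.14 for Hoxd9 (adjusted p = 0.00899), −1.09 for Hoxc5 (adjusted p = 0.00366) and −0.83 for Hoxc4 (adjusted p = 0.0053). It was −0.76 for Hoxc8 (adjusted p = 0.00983), −0.71 for Hoxd8 (adjusted p = 0.000904), −0.69 for Hoxa7 (adjusted p = 0.0373) and −0.62 for Hoxc6 (adjusted p = 0.0165). Leaving out 1 library at a time, 7 of these calls held in all 24 fits. Hoxa7 was lost in 13 (adjusted p from 0.0524 to 0.0741) and Hoxa3 in 3, without P24 dM1/2 replicate 3, P28 dM1/2 replicate 2 or P28 dM1/2 replicate 3 (0.0507 to 0.053). Hoxa3 also lost the threshold with edgeR (−1.02, adjusted p = 0.0676) and DESeq2 (−1.06, adjusted p = 0.0552), and Hoxa7 with no filter on low values (adjusted p = 0.0575).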

How the results depend on the processing

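Of 934 refits of the 48 calls on members, 836 kept the call, 98 lost the threshold and 0 reversed. The number of members called at P24 was 10 and ranged from 5 to 9 when a library was left out. It was 5 without control replicate 2 (17.2%, beside 14.6% of all genes). It was 6 without dM1/2 replicate 2 (20.7%, beside 18.1%) or dM1/2 replicate 3 (20.7%, beside 16.8%). At P28 it was 12 and ranged from 6 to 12, with 6 without dM1/2 replicate 2 (24.0%, beside 21.5%). In control anagen against telogen it ranged from 14 to 17, with 14 without P28 control replicate 3 (56.0%, beside 39.9%) or P60 control replicate 3 (56.0%, beside 41.4%). For the difference of the effects it ranged from 7 to 10, with 7 without P24 dM1/2 replicate 3 (26.9%, beside 26.0%) or P28 dM1/2 replicate 2 (26.9%, beside 26.2%). A single fit of all libraries called 1 member between P28 and P24 controls, where limma on those libraries called 0. With no filter on low values, limma lost Hoxa7 (adjusted p = 0.055) and Hoxb4 (0.0518) at P24, Hoxc8 at P28 (0.0561), and Hoxc5 (0.0564) and Hoxb2 (0.0553) in control anagen against telogen. The single fit lost Hoxb4 at P24 (0.0688), Hoxb5 at P28 (0.0717) and Hoxd9 (0.0685) and Hoxc5 (0.0535) in control anagen against telogen.

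With the replicate number as a block, 6 of 29 members were called at P24 (20.7%, beside 16.9% of all genes), 1 higher and 5 lower, and Hoxc11 (adjusted p = 0.0521), Hoxd8 (0.0521), Hoxa7 (0.0736) and Hoxb4 (0.0953) lost the threshold. In control anagen against telogen the block ended the call of Hoxc5 (0.06). It ended no other call on members. Libraries with the same number did not deviate together at P24 (correlations −0.18, 0.04 and −0.40) or P28 (−0.15, 0.03 and −0.23), so the numbers were not taken to pair the mice. At P20 each library correlated best with its own number (0.23, 0.08 and 0.12), and between P28 and P60 controls all 3 correlations were over 0.1 (0.13, 0.12 and 0.17), while the other control groups of that contrast did not pair in this way. The 3 libraries per group and the shallow telogen libraries limit what could be detected, above all for genes near 0.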
